A study of Mus musculus with 8 samples.

Results

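The genes described here are 41 chaperones of the cytosol and mitochondria: the HSP70, HSP110, HSP90 and small heat shock proteins, their J-domain, BAG and other co-chaperones, the heat shock factors, and the 8 subunits of the chaperonin CCT. They were taken from a list of gene symbols made from background knowledge, and all 41 were present among the 24112 genes of each library. They were sorted by role into 10 heat-inducible genes, 2 heat shock factors, 21 constitutive chaperones and co-chaperones (5 of them mitochondrial) and 8 CCT genes. RNA came from LSK cells (no lineage markers, Sca1+, Kit+), a marrow population rich in blood stem and early progenitor cells, sorted from C57BL/6 mice after transplantation. The mice had been reconstituted with Vav-Cre+ marrow (wild type, WT, 4 libraries) or with Traf6-/-;Vav-Cre+ marrow (Traf6 knockout, KO, 4 libraries), so both groups carried Cre under the Vav promoter, which is active throughout the blood system. The labels give no age, and they leave unsaid whether each library is a different mouse. The p-values therefore set a difference only against the variation among these libraries, which may be technical. The study asked whether TRAF6, a ubiquitin ligase that relays Toll-like and interleukin-1 receptor signals to NF-κB, sustains blood stem cells at rest.

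Chaperones bind unfolded protein chains and, with ATP, help them reach or regain their native shape. Under heat or other protein-damaging stress, heat shock factor 1 is released from chaperones, binds heat shock elements (inverted repeats of the letters GAA) and induces a set of genes led by the inducible HSP70s, whereas relatives such as Hspa8 and Hsp90ab1 are made at all times. CCT is a double-ring chaperonin that folds actin and tubulin, and HSP60 with HSP10 does the corresponding work in mitochondria. Blood stem cells are known for a low rate of protein synthesis and for sensitivity to misfolded protein.

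Each value is in RPKM (read density along a gene, corrected for library size), so genes can be compared per length within a library. Depth, read from the steps between low values, was about 19.2 to 30.7 M reads in genes and is an estimate. The libraries listed 9055 to 13689 genes above 0, fewest in KO3. KO3 gave a 0 to 4.44% of the 3943 genes that averaged over 20 RPKM, and the others to 0.15% to 1.55%, so a 0 is written as listed at 0 and does not show absence. Lane 5 of the sequencer held KO3 and KO4, and lane 4 the remaining 6 libraries. Traf6 (Entrez 22034) was at 14.9, 3.52, 9.40 and 7.10 RPKM in WT1 to WT4 and at 0.613, 0.818, 0 and 0.00721 RPKM in KO1 to KO4, below every WT library. Of markers of the LSK fraction, Kit was at 50.6 to 113 RPKM, Cd34 at 178 to 284 and Ly6a (Sca1) at 6.53 to 11.8 over the 8 libraries, while of the B cell genes Cd79a, Ms4a1 and Pax5 were listed at 0 in all, Vpreb1 reached 5.59, and Cd79b was at 4.78 to 16.3.

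As a group, the chaperone genes differed little between the genotypes, and Hsph1 was the member with the smallest p. The test was limma on log2(RPKM + 1) over 11276 genes that reached 1 RPKM in 4 or more libraries. By it, 0 members passed an adjusted p of 0.05 (0.0% of all genes did; Benjamini-Hochberg over all genes). At an unadjusted p under 0.05, 1 of 40 tested members was higher in KO (Hsph1), against 2.77% of all genes, and 1 was lower (Dnajb4), against 4.74%; in either direction this was 2 of 40, against 7.51%. The values of KO and WT did not overlap in 2 members that were higher in KO, Hsph1 and Chordc1 (2.05% of all genes), and in 1 that was lower, Dnajb4 (3.88%), or 3 of 40 against 5.92% in either direction. All 3 were listed among the 10 heat-inducible genes, but they differed in direction. The lists were made with earlier results of these data known, so this is a description. The remaining member, Hspb1, did not pass the filter on low values.

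The median log2 difference (KO minus WT) of the 40 tested members was 0.037, where that of all genes was -0.14, and 24 of the 40 were above 0, against 39.0% of all genes. It was 0.027 over 9 heat-inducible genes, 0.081 over 21 constitutive genes and 0.019 over 8 CCT genes. The heat-inducible median depended on single libraries: it was -0.22 without KO1, -0.20 without KO4 and 0.22 without KO3. The constitutive median ran from -0.076 without KO1 to 0.25 in lane 4 alone, and lay above the median of all genes of the same fit in every setting run. The CCT median ran from -0.064 with quantile normalization, where it lay below that of all genes, to 0.17 in lane 4 alone, and lay above it in all other settings run. The sign against 0 thus depended on the setting in all 3 lists. Unless a pseudocount of 0.1 is named, log2 differences are on the log2(RPKM + 1) scale, where genes of low level show less than their true change. Those of the main fit can be read against -0.14. The median of all genes was -0.0175 in both lane settings. It ran from -0.18 (without WT2) to -0.049 (without KO3) when 1 library was left out. In the main fit 33 of the 40 lay above the median of all genes, above which 50.0% of genes lie by definition. They were 6 of 9 heat-inducible genes, 17 of 21 constitutive genes, both heat shock factors and all 8 CCT genes. The counts depend on the scaling. With quantile normalization the median of all genes was -0.0008, and of the CCT genes only Tcp1 (0.014) and Cct3 (0.019) lay above it. Since the members were chosen with earlier results of these data known, these counts are a description.

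**Figure D1:**
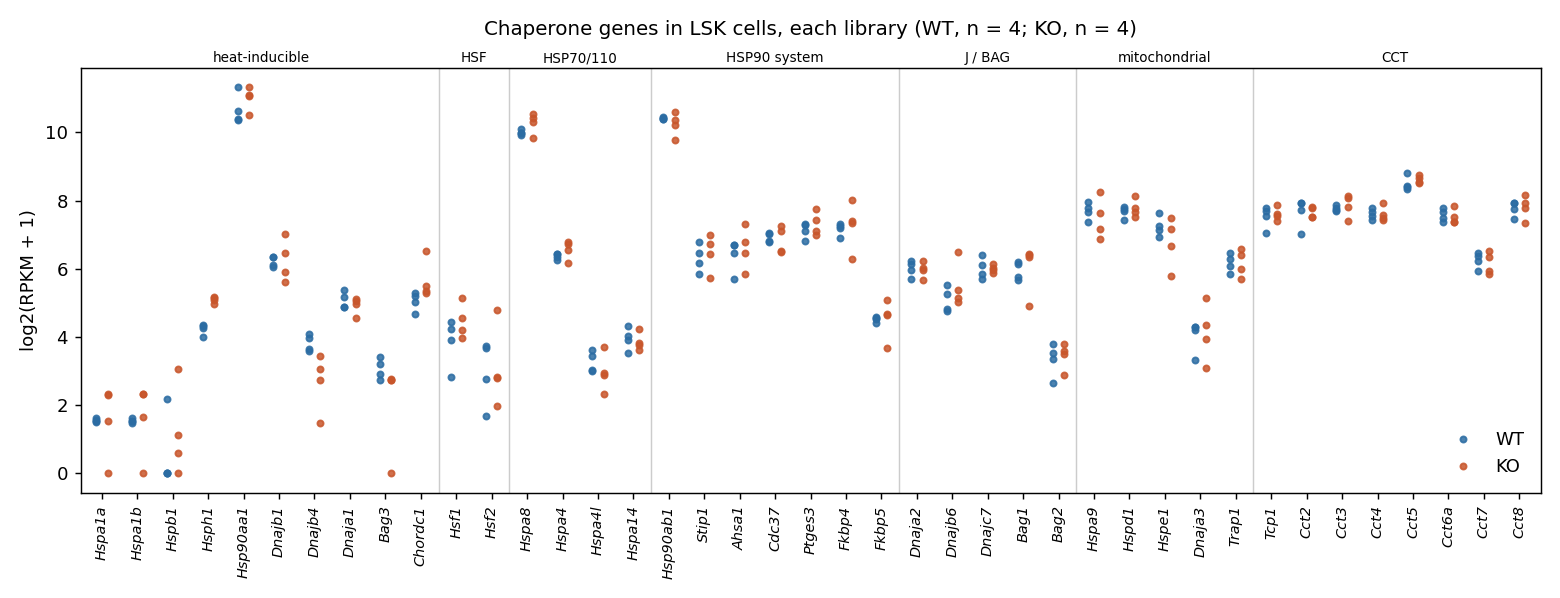
Levels of the 41 chaperone genes as log2(RPKM + 1), with a point for each WT (blue) and KO (orange) library, grouped by role. Hsp90aa1, Hsp90ab1 and Hspa8 stand above all other members in every library, and the points of WT and KO overlap in every gene except Hsph1, Dnajb4 and Chordc1.

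The 41 genes held 1.48% to 1.92% of all RPKM of a library. Between 50.1% and 61.1% of that came from 3 genes: the HSP90 genes Hsp90aa1 and Hsp90ab1, and Hspa8, which encodes the constitutive HSC70. The members with the lowest levels were the heat-inducible Hspa1a, Hspa1b and Hspb1. In WT the mean level of Hspa8 was 1021 ± 51.7 RPKM (SD, n = 4), whereas Hspa1a and Hspa1b together came to 0.355% to 0.434% of the Hspa8 level in the same library. Their sum may count the same reads in both genes. The order was the same in KO, where that share was 0.541%, 0.297%, 0 and 0.881% in KO1 to KO4.

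Heat shock factor 1 (Hsf1, Entrez 15499), the main activator of the response, was at 20.6, 6.07, 17.7 and 14.0 RPKM in WT1 to WT4 and at 22.8, 17.4, 34.1 and 14.7 RPKM in KO1 to KO4. WT2 was the lowest and KO3 the highest, and the groups overlapped (log2 difference 0.62 ± 0.40 SE, limma adjusted p = 0.714). Hsf2 (15500), a related factor that can form mixed trimers with HSF1, was at 11.9, 2.20, 5.87 and 12.3 RPKM in WT, against 5.98, 6.07, 26.6 and 2.95 RPKM in KO. WT2 and KO4 were low and KO3 stood far above the rest (0.13 ± 0.68, adjusted p = 0.967). In the 6 lane 4 libraries alone the Hsf2 difference was -0.16.

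Hspa1a (193740) and Hspa1b (15511) encode nearly the same inducible HSP70. Hspa1a was at 1.94, 2.10, 1.82 and 1.91 RPKM in WT1 to WT4 and at 3.97, 1.87, 0 and 4.02 RPKM in KO1 to KO4, where the 0 of KO3 is as listed. KO1 and KO4 lay above every WT library and KO2 and KO3 did not. Hspa1b was at 1.93, 2.09, 1.81 and 1.90 RPKM in WT, against 4.02, 2.16, 0 and 4.002 RPKM in KO. The ratio of Hspa1a to Hspa1b was 1.004 in WT1 to WT4 and in KO4, 0.987 in KO1 and 0.867 in KO2. Of the 50-base words of the Hspa1a transcript, 58.8% also occur in Hspa1b, and 62.3% of those of Hspa1b occur in Hspa1a. Reads of this pair can thus be assigned to either gene, and the separate values are uncertain. Where the ratio stayed at 1.004, Hspa1a and Hspa1b are not independent measures, although they are counted here as separate members. Whether the same reads entered both cannot be told from RPKM. The log2 differences were -0.014 ± 0.58 and 0.027 ± 0.58 (adjusted p = 0.996 and 0.992). In lane 4 alone they were 0.36 and 0.44.

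The promoters of the pair are shown because they too are almost the same. The last 120 bases before the RefSeq start sites (GRCm38.p6, both on the minus strand, with no GENCODE exon over them, at chr17:34972157-34972276 and chr17:34959239-34959358) were identical at 119 positions. The capitals mark a short heat shock element, GAANNTTC.
Hspa1a: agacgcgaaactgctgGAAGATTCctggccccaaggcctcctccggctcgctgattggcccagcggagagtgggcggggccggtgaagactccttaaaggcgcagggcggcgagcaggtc
Hspa1b: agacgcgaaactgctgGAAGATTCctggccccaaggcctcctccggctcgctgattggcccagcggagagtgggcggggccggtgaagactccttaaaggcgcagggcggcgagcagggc

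Hsph1 (15505) encodes HSP105, an HSP110 protein that exchanges the nucleotide of HSP70 and is strongly induced by heat. It was at 14.9, 19.3, 19.2 and 18.2 RPKM in WT1 to WT4 and at 34.9, 34.3, 30.3 and 33.0 RPKM in KO1 to KO4. Every KO library lay above every WT library, with a narrow spread in both groups: 17.9 ± 2.08 RPKM in WT and 33.1 ± 2.06 RPKM in KO (SD, n = 4), a ratio of 1.85. The log2 difference was 0.86 ± 0.20 (SE), with an unadjusted p of 0.00156 and an adjusted p of 0.441 in limma. The 2-sided exact permutation p was 0.0286, the smallest that 8 libraries can give. Any gene without overlap between the groups has this value, so it restates the lack of overlap. By its limma adjusted p, Hsph1 did not pass over all genes.

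Within lane 4, which holds KO1 and KO2 of the KO group, the Hsph1 difference was 0.92. Over 17 alternative settings, not all of which can change the difference, it was 0.78 to 0.96, with adjusted p of 0.0209 to 0.889 in limma. It passed in 1 of them, a limma fit with library weights (0.91, adjusted p = 0.0209), which gave KO2 a weight of 6.50 and KO3 a weight of 0.137; that fit called 164 of all 11276 genes, where the main fit called 0. None of the 50-base words of the Hsph1 transcript occurred in a transcript of another gene. The other HSP110 genes overlapped between the groups. Hspa4 (15525) was at 85.3, 86.0, 75.3 and 81.1 RPKM in WT, against 109, 93.7, 104 and 71.0 RPKM in KO. KO1 to KO3 lay above all WT libraries and KO4 below all of them (0.19 ± 0.18, limma adjusted p = 0.785). The Hspa4 difference was 0.30 within lane 4 and 0.32 without KO4. Hspa4l (18415), a testis-enriched relative, was at 7.07, 9.86, 11.2 and 7.15 RPKM in WT, against 4.002, 6.39, 6.76 and 12.1 RPKM in KO, with overlap (-0.30 ± 0.40, adjusted p = 0.839). As a share of Hspa4, Hsph1 was at 17.4% to 25.5% in WT and at 32.0%, 36.6%, 28.996% and 46.4% in KO1 to KO4.

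Other gene groups moved between the same libraries. The summed RPKM of 12 granulocyte-monocyte genes (among them Mpo, Elane and Ctsg) was 616, 1430, 1676 and 1857 in WT1 to WT4 and 8077, 3749, 2896 and 2112 in KO1 to KO4. All 10 tested members were positive. The sum of 12 LSK markers was 549 to 652 RPKM in WT and 357 to 582 in KO, with all 12 negative. The part of these shifts in the Hsph1 values was not tested. WT1 was the lowest of the 8 libraries both in Hsph1 and in the granulocyte-monocyte sum, and KO1 the highest in both. KO1 was also the highest library for Hspa8 and Hspa4. WT4 and KO4 had nearer sums, 1857 and 2112, with Hsph1 at 18.2 and 33.0 RPKM. Here as in the other genes, more cells of a type and more RNA per cell cannot be told apart in sorted bulk RNA.

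**Figure D2:**
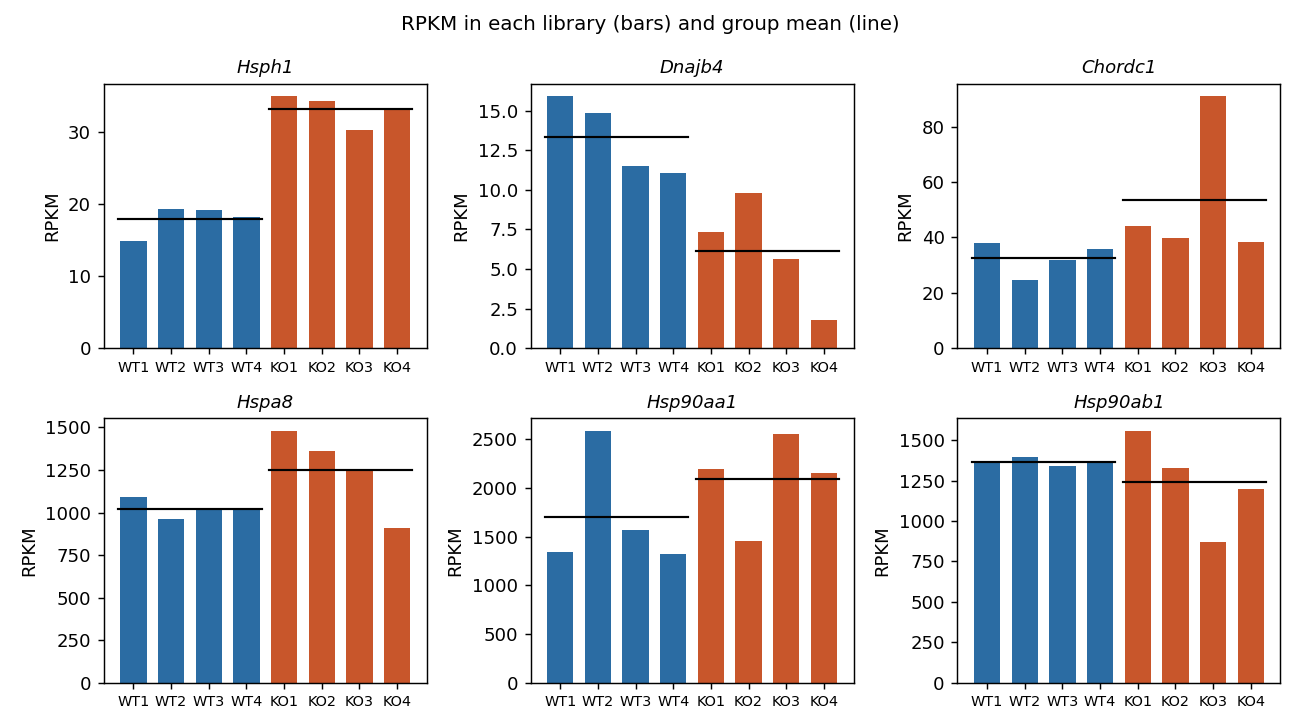
RPKM in each library (bars; WT blue, KO orange) with the group mean (black line) for 6 members. Hsph1 is at 14.9 to 19.3 in WT and 30.3 to 34.9 in KO, Chordc1 is set by KO3 at 90.9, and Hsp90ab1 is level in WT but spread in KO.

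Heat shock elements were searched in the RefSeq promoter windows (300 bases each, the last 50 of them after the start site, GRCm38.p6), which held 35 of the 41 genes. The longer element GAANNTTCNNGAA, on either strand, lay in the windows of 5 of the 35 members and in 0.662% of all 27025 genes. The shorter element GAANNTTC, which is part of the longer, lay in 16 of 35 members and in 17.0% of all genes, and in 8 of the 9 heat-inducible members with a window. Those 8 were Hspa1a, Hspa1b, Hspb1, Hsph1, Dnajb4, Dnaja1, Bag3 and Chordc1. They thus include Dnajb4, the member lower in every KO library. The longer elements are printed with the match in capitals, and include those of Hsph1 and Chordc1, the members higher in every KO library. Overlapping matches were joined: 3 in Chordc1, over 23 bases, and 2 each in Hspd1 and Hspe1, over 18 bases. Hspd1 and Hspe1 are neighbours that face away from each other, and their lines give the strands of 1 shared site. A match is a description of the letters and not evidence of binding. The windows are chr5:149636280-149636308 (minus strand, match from base 16 after an annotated start) for Hsph1, chr9:18292260-18292288 (plus, from 4 bases before the start) for Chordc1, chr5:29735844-29735872 (plus) for Dnajb6, and chr1:55088054-55088081 for Hspd1 (minus) and Hspe1 (plus).
Hsph1: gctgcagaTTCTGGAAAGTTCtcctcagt
Chordc1: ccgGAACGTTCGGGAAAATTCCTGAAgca
Dnajb6: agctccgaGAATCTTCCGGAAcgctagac
Hspd1: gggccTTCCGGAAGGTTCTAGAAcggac
Hspe1: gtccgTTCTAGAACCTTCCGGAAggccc

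The 5 genes that hold the longer element differed in size and sign of change in the main fit. Hsph1 and Chordc1 had log2 differences of 0.86 and 0.62, Dnajb6 0.42, Hspd1 0.10 and Hspe1 -0.46. In lane 4 alone all were positive, at 0.92, 0.37, 0.11, 0.22 and 0.10 in the same order. Positive signs were common among the members in that setting. The medians of the heat-inducible, constitutive and CCT lists there were 0.13, 0.25 and 0.17, where that of all genes was -0.0175. Hspd1 and Hspe1 also share 1 site. A shared response of these genes was not tested. Chordc1 (66917), an HSP90 co-chaperone, was at 37.9, 24.6, 31.8 and 36.0 RPKM in WT1 to WT4 and at 44.2, 39.8, 90.9 and 38.3 RPKM in KO1 to KO4. The groups did not overlap, but the gap between WT1 and KO4 was small and KO3 was far above the others (0.62 ± 0.30, adjusted p = 0.665). Without KO3 the difference was 0.33.

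Among the heat-inducible J proteins and Bag3, Dnajb4 was the gene without overlap. Dnajb4 (67035), a J-domain partner of HSP70, was at 15.9, 14.8, 11.5 and 11.1 RPKM in WT1 to WT4 and at 7.37, 9.78, 5.66 and 1.80 RPKM in KO1 to KO4. Every KO library lay below every WT library, with KO4 lowest (-1.15 ± 0.45, unadjusted p = 0.0296, adjusted p = 0.634). The 2-sided exact permutation p was again 0.0286, as for Chordc1, and restates the lack of overlap. The difference was -0.58 within lane 4 and -0.75 without KO4, and its unadjusted p was no longer under 0.05 without WT1 or WT2, in both lane settings, with library weights, or without WT2, KO3 and KO4. Bag3 (29810), which links HSP70 to selective autophagy, was at 9.76, 8.17, 6.49 and 5.71 RPKM in WT, against 5.69, 5.75, 0 and 5.80 RPKM in KO, the 0 as listed. The 3 KO libraries above 0 lay at the lower end of WT (-1.004 ± 0.66, adjusted p = 0.718), and in lane 4 the difference was -0.32.

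Dnajb1 (81489), the classical HSP40, was at 80.8, 79.8, 65.8 and 68.4 RPKM in WT, against 48.4, 59.5, 129 and 87.5 RPKM in KO. Its KO values split by lane: KO1 and KO2, in lane 4, lay below all WT libraries, and KO3 and KO4, in lane 5, lay above all of them. The difference was 0.042 ± 0.29 (adjusted p = 0.974) over all libraries and -0.44 in lane 4 alone (unadjusted p = 0.0463 in limma, adjusted p = 0.448), so no direction can be given. The immediate-early genes, a stimulus-induced list of 20 including Fos, Jun and Egr1, differed between the same KO libraries: their mean log2 level relative to all genes was 1.04 and 1.31 in KO1 and KO2, 2.49 and 2.25 in KO3 and KO4, and 2.02 to 2.91 in WT. The part of lane or of this response in Dnajb1 was not tested. Dnaja1 (15502), another cytosolic HSP40, was at 28.3 to 40.4 RPKM in WT, against 22.4 to 33.8 RPKM in KO (-0.15 ± 0.22). Hspb1 (15507), the small heat shock protein HSP27 (also HSP25 in mouse), was at 3.50 RPKM in WT3 and listed at 0 in the other WT libraries, and at 0.505, 1.18, 7.31 and 0 RPKM in KO1 to KO4. It shares 51.6% of its 50-base words with other transcripts, and its level was too low for the test.

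Hspa8 (15481) was at 1089, 964, 1013 and 1018 RPKM in WT1 to WT4 and at 1479, 1361, 1254 and 911 RPKM in KO1 to KO4. KO1 to KO3 lay above all WT libraries and KO4 below all of them (0.27 ± 0.16, adjusted p = 0.699). The difference was 0.48 within lane 4 and 0.42 without KO4, with unadjusted p of 0.00645 and 0.00976 in limma and adjusted p of 0.302 and 0.491. Of its 50-base words, 74.8% occur in transcripts of other genes, mostly pseudogenes, so its level depends on how such reads were assigned. Hspa14 (50497), an HSP70-like protein bound to ribosomes, was at 10.5 to 18.9 RPKM in WT, against 11.2 to 17.7 RPKM in KO (-0.084 ± 0.28).

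**Figure D3:**
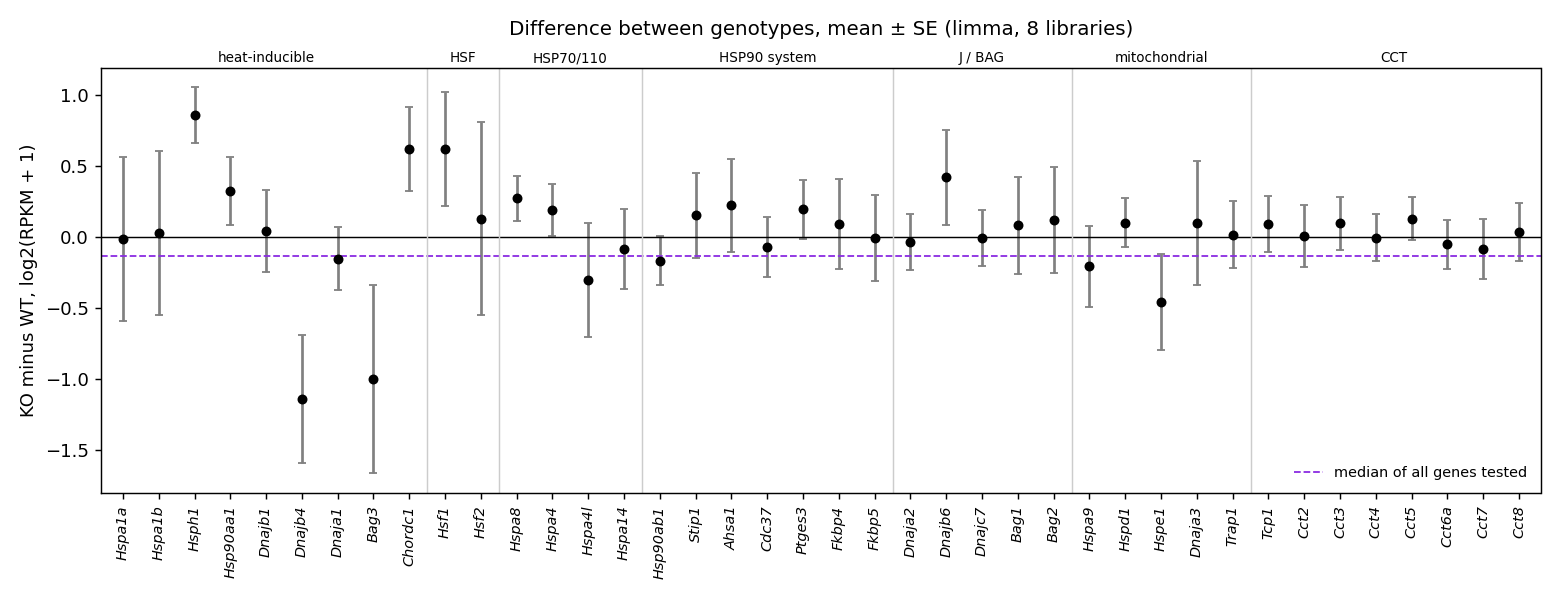
Log2 difference, KO minus WT, on the log2(RPKM + 1) scale for the 40 tested members (points, mean; bars, ± SE from limma, n = 4 per group), with the median of all genes tested (dashed, -0.14). Hsph1 at 0.86 and Dnajb4 at -1.15 mark the range, and the 8 CCT genes lie between -0.089 and 0.13.

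The HSP90 isoforms differed in how steady they were in WT, where WT2 alone was high in Hsp90aa1, and both were spread in KO. Hsp90ab1 (15516), the constitutive HSP90-beta, was at 1365, 1397, 1340 and 1358 RPKM in WT1 to WT4 and at 1556, 1330, 873 and 1201 RPKM in KO1 to KO4. The WT libraries were nearly level (1365 ± 23.7), and the KO libraries lay on both sides of them with KO3 lowest (1240 ± 285, SD, n = 4; -0.17 ± 0.17, adjusted p = 0.796). Hsp90aa1 (15519), the inducible HSP90-alpha, was at 1345, 2583, 1570 and 1323 RPKM in WT, against 2198, 1457, 2554 and 2154 RPKM in KO. WT2 was as high as KO3, the highest of KO, and the groups overlapped (0.32 ± 0.24, adjusted p = 0.740). Without WT2 the difference was 0.54 and the adjusted p 0.856. The ratio of Hsp90aa1 to Hsp90ab1 was 0.986, 1.85, 1.17 and 0.974 in WT1 to WT4 and 1.41, 1.10, 2.93 and 1.79 in KO1 to KO4. The ratio was highest in WT2, KO3 and KO4, the 3 libraries that listed the fewest genes above 0. Hsp90aa1 shares 58.5% of its 50-base words with other transcripts, against 4.5% for Hsp90ab1.

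**Figure D4:**
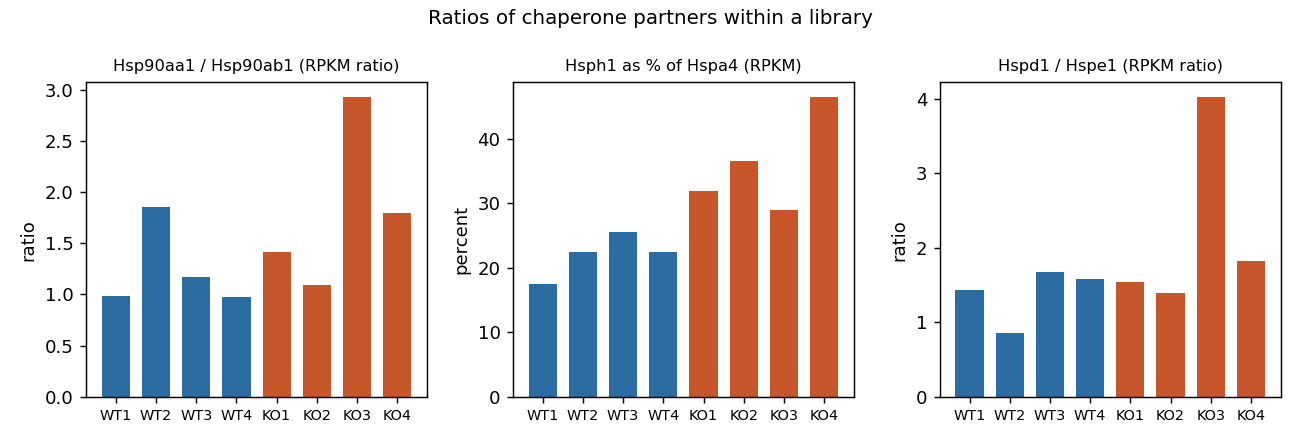
Ratios of partner chaperones within a library (bars; WT blue, KO orange). The ratio of Hsp90aa1 to Hsp90ab1 is highest in KO3 (2.93), Hsph1 as a percent of Hspa4 is higher in each KO library than in each WT library, and the ratio of Hspd1 to Hspe1 is 4.02 in KO3 and at most 1.82 elsewhere.

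No HSP90 co-chaperone of the constitutive class passed a threshold. Stip1 (HOP), which bridges HSP70 and HSP90, averaged 81.2 ± 22.6 RPKM in WT against 92.3 ± 31.6 in KO, and Ahsa1 (AHA1), which stimulates the ATPase of HSP90, at 85.7 ± 24.0 and 103 ± 42.5 (SD, n = 4). Cdc37, which brings kinases to HSP90, was at 120 ± 10.7 and 117 ± 32.1 RPKM, and Ptges3 (p23) at 140 ± 21.4 and 162 ± 39.3. These 4 differences lay between -0.072 and 0.22. The immunophilin Fkbp4 (FKBP52) was at 144 ± 17.5 and 166 ± 74.1 RPKM, with 259 in KO1 and 77.4 in KO3. Fkbp5 (14229), its glucocorticoid-inducible relative FKBP51, was at 20.2, 22.6, 22.2 and 23.0 RPKM in WT, against 32.7, 24.0, 11.7 and 24.3 RPKM in KO. KO1 was the highest and KO3 the lowest library for both immunophilins (Fkbp4 0.091 ± 0.32, Fkbp5 -0.0091 ± 0.30). In lane 4 alone Fkbp4 was at 0.54 ± 0.22, with an unadjusted p of 0.0361 and an adjusted p of 0.418 in limma.

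The constitutive J and BAG proteins showed no separation. Bag1 (12017), a nucleotide exchange factor of HSP70 that also binds BCL2, was at 73.0, 49.7, 70.1 and 53.0 RPKM in WT1 to WT4 and at 84.8, 80.9, 84.1 and 29.1 RPKM in KO1 to KO4. KO1 to KO3 lay above all WT libraries and KO4 below all (0.081 ± 0.34; 0.45 without KO4). Bag2 (213539), which restrains the ubiquitin ligase CHIP, was at 10.5, 9.27, 5.22 and 12.9 RPKM in WT, against 11.04, 10.4, 12.9 and 6.46 RPKM in KO, with full overlap. Dnaja2 was at 64.2 ± 10.05 and 62.5 ± 9.67 RPKM and Dnajc7 at 64.8 ± 14.6 and 63.4 ± 5.01. Dnajb6, which suppresses protein aggregation, was at 34.0 ± 8.94 and 48.9 ± 26.9 RPKM, the latter with KO3 at 88.8.

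In mitochondria, the HSP60 gene Hspd1 (15510) was at 216, 170, 205 and 222 RPKM in WT1 to WT4 and at 278, 201, 218 and 183 RPKM in KO1 to KO4 (0.10 ± 0.18, adjusted p = 0.884). Its HSP10 partner Hspe1 (15528) was at 151, 198, 122 and 140 RPKM in WT, against 181, 144, 54.1 and 101 RPKM in KO (-0.46 ± 0.34, adjusted p = 0.738). The groups overlapped in both genes. The ratio of Hspd1 to Hspe1 was 0.862 to 1.68 in WT, 1.39 to 1.82 in KO1, KO2 and KO4, and 4.02 in KO3, although the genes share a promoter region. Each shares 44.8% of its 50-base words with other transcripts. Hspa9 (mortalin, the mitochondrial HSP70) was at 208 ± 34.4 and 191 ± 83.4 RPKM, and Trap1, the mitochondrial HSP90, at 71.4 ± 13.1 and 73.4 ± 20.1. Dnaja3 (83945), the mitochondrial HSP40, was at 17.4, 9.03, 18.7 and 18.8 RPKM in WT, against 34.3, 19.6, 7.52 and 14.2 RPKM in KO. KO1 was the highest library for Hspa9, Trap1 and Dnaja3.

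Of the 7 role classes, the CCT genes had the narrowest range of differences between the genotypes. Their log2 differences ran from -0.089 (Cct7) to 0.13 (Cct5), each within its SE of 0, and 0 of 8 had an unadjusted p under 0.05. The summed level of the 8 genes was 1647, 1454, 1641 and 1866 RPKM in WT1 to WT4 and 1929, 1715, 1737 and 1443 RPKM in KO1 to KO4. The class lay close to 0 under each scaling tried, with a median of 0.019, and -0.064 with quantile normalization. In lane 4 alone Cct3 was at 0.34 ± 0.15, with an unadjusted p of 0.0482 and an adjusted p of 0.450 in limma.

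CCT holds its 8 subunits in equal number, but their transcripts were not equal. Cct5 (12465, the epsilon subunit) was the highest of the 8 in all 8 libraries, at 321, 338, 343 and 447 RPKM in WT1 to WT4 and at 405, 364, 429 and 373 RPKM in KO1 to KO4. Cct7 (12468, eta) was the lowest in all 8, at 82.0, 60.4, 86.8 and 74.6 RPKM in WT, against 90.8, 80.6, 60.0 and 56.9 RPKM in KO. The ratio of highest to lowest was 3.91 to 5.99 in WT and 4.46 to 7.16 in KO. The other 6, Tcp1 (the alpha subunit), Cct2, Cct3, Cct4, Cct6a and Cct8, had WT means of 185 to 220 RPKM and KO means of 184 to 237 RPKM, and their order changed from library to library. RPKM depends on the gene length the authors used, which is not given in the sources used here, so a steady ratio between subunits may also hold an error of length.

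**Figure D5:**
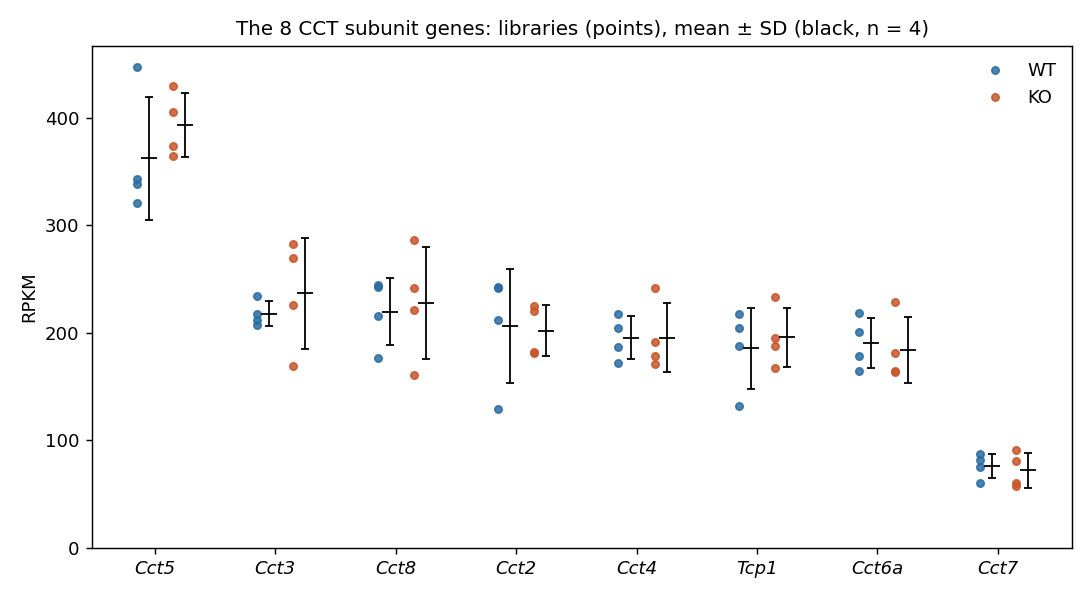
RPKM of the 8 CCT subunit genes in each library (points; WT blue, KO orange) with the mean ± SD of each group (black, n = 4). Cct5 is the highest and Cct7 the lowest in all 8 libraries, and the WT and KO points overlap in each subunit.

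A further list of 57 chaperone genes that are not among the 41 (prefoldins, other HSP70 and HSP90 partners, mitochondrial import and quality control genes, and further small heat shock genes and factors) gave 51 tested genes with a median difference of -0.15. In limma 0 of the 51 passed over all genes, 3 had an unadjusted p under 0.05 (Clpp, higher in KO; Dnajc19 and Hspb11, lower), against 7.51% of all genes, and the groups did not overlap in 3 that were higher and 2 that were lower, against 5.92%. The 10 mitochondrial genes of the list had a median of 0.34, with 7 positive. Clpp, the mitochondrial matrix protease, was at 11.7, 21.7, 19.3 and 21.4 RPKM in WT1 to WT4 and at 33.4, 23.5, 35.9 and 28.9 RPKM in KO1 to KO4, without overlap. Grpel2, a nucleotide exchange factor of mortalin, was at 4.66, 0.0128, 4.47 and 3.47 RPKM in WT, against 5.68, 7.18, 11.02 and 6.99 RPKM in KO, also without overlap. Afg3l2, a protease of the inner membrane, was at 13.3 ± 3.51 and 25.5 ± 12.5 RPKM, with overlap.

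Among the other companions with the smallest p, Ruvbl1, an ATPase of the R2TP complex that works with HSP90, averaged 93.6 ± 6.73 RPKM in WT against 127 ± 30.8 in KO (SD, n = 4), with every KO library above every WT library. Dnajc19, a J protein of the mitochondrial import motor, was at 7.13, 5.97, 7.09 and 9.14 RPKM in WT1 to WT4, at 5.04 and 5.24 in KO1 and KO2, and listed at 0 in KO3 and KO4. Hspb11, which despite its name is a subunit of the intraflagellar transport machinery, was at 3.88 to 38.9 RPKM in WT, at 6.41 and 5.94 in KO1 and KO2, and listed at 0 in KO3 and KO4. The prefoldins, which hand chains to CCT, and the phosducin-like partners of CCT had a median of -0.20, with 7 of 9 negative. The median of all genes was -0.14, and none of the 9 had an unadjusted p under 0.05.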

How the data were processed

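Poly(A) RNA was prepared from 100 ng of total RNA of LSK cells of 4 WT and 4 KO libraries, per the labels' protocols. The deposited values are RPKM made by the authors; the unit is inferred, since values times transcript length in kb summed to 0.746 to 0.77 M (mean coding transcript) or 1.142 to 1.171 M (longest). TopHat, edgeR and mm9 are named in the submitters' processing notes without version or role; the counting tool is not given in the sources used here. Of 24112 Entrez IDs, 24029 were matched to symbols of a GRCm38 table, used for names only. Depth was estimated from values up to 0.2 RPKM, of which 41.4% to 61.2% were whole reads within 0.03, so no count test was run and no counting interval is given.

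The main test was limma 3.58.1 in R 4.3.3 (genotype as the only term, all 8 libraries, robust eBayes with a variance trend) on log2(RPKM + 1), with Benjamini-Hochberg adjustment over 11276 genes, checked on simulated data. Exact permutations used all assignments of the 8 libraries. Values are mean ± SD and log2 differences ± SE. The members and gene lists were chosen with earlier results of these data known. By rule, every library's value is given for the highest and lowest gene of each role class, for the best-known members, and for members at an unadjusted p under 0.05 or without overlap between groups; of the companion list the 6 genes of smallest p are named. Shared 50-base words (the read length in the series design) were counted over GENCODE M21 transcripts. Alternatives were the filter, the pseudocount, lane, the replicate number as a block, quantile normalization, library weights, the list of inducible genes, an adjusted p of 0.1 and leaving out each library; leaving out WT2, KO3 and KO4 was chosen after seeing the data.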

Additional observations from a re-analysis of the deposited data

Results flagged for a closer look

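Of 105 groups of 4 libraries examined for members and their ratios, 9 held a library so far from its nearest neighbour that the gap passed Dixon's 95% critical value for the range of the group, which chance gives in about 1 in 20 groups. In 6 of the 9 the library was KO3, which also listed the fewest genes: Chordc1 at 90.9 RPKM (next 44.2), Dnajb6 at 88.8 (next 40.9), Hsf2 at 26.6 (next 6.07), Hspb1 at 7.31 (next 1.18), Bag3 listed at 0 (next 5.69) and the ratio of Hspd1 to Hspe1 at 4.02 (next 1.82). The others were Bag1 in KO4 at 29.1 RPKM (next 80.9), Dnaja3 in WT2 at 9.03 (next 17.4) and Hspb1 in WT3 at 3.50 (others listed at 0).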

How the results depend on the processing

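Over 678 values (17 settings for each member, less the pair Hspa1a and Hspa1b, which did not reach a mean of 5 RPKM), 12 of 40 tested members kept the sign of their difference. Among them were Hsph1, Chordc1, Hspa8 and Hsp90aa1 as positive and Dnajb4, Bag3 and Dnaja1 as negative. The other signs changed at least once, and the cause was not tested. Both changes of the filter and the replicate block leave each difference unchanged by design. The lane covariate repeats the differences of lane 4 alone, so these settings add no test of the sign. In limma 0 members passed an adjusted p of 0.05 in every setting except library weights, where 1 did (Hsph1), and 0 passed 0.1 in the main fit, where 847 of all genes had an unadjusted p under 0.05. Members at an unadjusted p under 0.05 were 4 higher and 1 lower (Dnajb1) in lane 4 alone (1239 of all 11276 genes), 2 and 0 with lane as a covariate (658), 3 and 0 with library weights (1994) and 3 and 0 without WT2, KO3 and KO4 (1582); leaving out 1 library gave 1 (most settings), 2 (without WT2) or 4 (without KO4) higher and 0 (without WT1 or WT2) or 1 lower. The median of heat-inducible members was -0.16 with a pseudocount of 0.1, 0.22 with quantile normalization, 0.25 without WT2, KO3 and KO4, and -0.22 (without KO1) to 0.22 (without KO3) when 1 library was left out; quantile normalization moved the median of all genes from -0.14 to -0.0008. In both lane settings, in effect, and in the one without WT2, KO3 and KO4, only KO1 and KO2 stand for KO.

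Signs turned in lane 4 alone and, with the same values, with lane as a covariate in Hspa1a (0.36), Dnajb1 (-0.44), Hsf2 (-0.16), Hsp90ab1 (0.076), Cdc37 (0.26), Fkbp5 (0.34), Dnaja2 (0.11), Hspa9 (0.25), Hspe1 (0.10), Cct6a (0.10) and Cct7 (0.18). With library weights they turned in Hspa1a (0.14), Dnajb1 (-0.26), Hsf2 (-0.38), Cdc37 (0.14), Ptges3 (-0.091), Fkbp5 (0.18), Dnaja2 (0.085), Hspa9 (0.069), Hspe1 (0.057), Cct6a (0.0079) and Cct7 (0.028), with a pseudocount of 0.1 in Hspa1b (-0.54), and with quantile normalization in Hspa1a (0.54), Dnajb1 (-0.023), Fkbp4 (-0.0067), Fkbp5 (0.038), Trap1 (-0.042), Cct2 (-0.089), Cct5 (-0.021) and Cct8 (-0.048). Without WT2, KO3 and KO4 they turned in Hspa1a (0.39), Dnajb1 (-0.40), Hsf2 (-0.59), Hsp90ab1 (0.088), Cdc37 (0.23), Ptges3 (-0.016), Fkbp5 (0.35), Dnaja2 (0.15), Hspa9 (0.34), Hspe1 (0.23), Cct2 (-0.057), Cct6a (0.13) and Cct7 (0.078). Leaving out 1 library gave ranges across 0 in Hspa1a (-0.28 to 0.50), Hspa1b (-0.22 to 0.55), Dnajb1 (-0.21 to 0.25), Hsf2 (-0.43 to 0.50), Hspa14 (-0.23 to 0.041), Stip1 (-0.021 to 0.40), Ahsa1 (-0.014 to 0.47), Cdc37 (-0.21 to 0.049), Fkbp4 (-0.16 to 0.41), Fkbp5 (-0.20 to 0.27), Dnaja2 (-0.14 to 0.058), Dnajc7 (-0.11 to 0.12), Bag1 (-0.051 to 0.45), Bag2 (-0.11 to 0.30), Hspd1 (-0.018 to 0.18), Dnaja3 (-0.24 to 0.45), Trap1 (-0.12 to 0.18), Tcp1 (-0.062 to 0.18), Cct2 (-0.20 to 0.098), Cct4 (-0.11 to 0.054), Cct6a (-0.16 to 0.013), Cct7 (-0.21 to 0.014) and Cct8 (-0.089 to 0.19).

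With the replicate number as a replicate block, the member counts stayed at 0 past the adjusted threshold, 1 higher and 1 lower, and 705 of all genes had an unadjusted p under 0.05. Same-numbered libraries did not deviate together (correlations of -0.08 to -0.038), and 0 of 4 WT libraries correlated best with the KO library of their own number. Depth is an estimate, so the lowest members, Hspa1a, Hspa1b and Hspb1, carry a counting error that could not be given.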
